A study of Mus musculus with 26 samples.

Results

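Peaks of RNA 5-hydroxymethylcytosine (5hmC) were examined in 5 mouse genes, Calm2, Calm3, Dyrk1a, Ube2v1 and Tmem189. The genes were chosen by earlier results on these same lists, because Calm2, Dyrk1a and Ube2v1 had strong peaks in every library. Calm3 was added as the paralog of Calm2, and Tmem189 because it overlaps Ube2v1. A peak was counted when its summit, the midpoint of its 200 bp interval, lay between the start and end of a member gene in the mm9 genome. This gave 143 of the 56538 peaks listed, in 25 of 23367 merged regions.

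The lists come from hMeRIP-seq, in which fragmented total RNA is precipitated with an anti-5hmC antibody and sequenced beside its input. There were 13 immunoprecipitated (IP) libraries in 5 groups. WT ESC (3 libraries) were wild-type embryonic stem cells grown with leukaemia inhibitory factor (LIF), and TKO ESC (3) were stem cells of genotype Tet1-Tet2-Tet3-KO, which lack all 3 Tet enzymes. WT EB (3) were embryoid bodies, aggregates of differentiating cells, taken after 4 days of growth of the wild type without LIF. Tet2-KI ESC (2) and Tet2dRBD-KI ESC (2) were stem cells in which a tag was added to the endogenous Tet2 gene, with its RNA-binding domain intact or deleted, and these lines were grown from picked clones. The lists held between 498 (WT EB replicate 1) and 10383 (Tet2-KI ESC replicate 1) peaks. The 9 lists of the first 3 groups also gave the fold enrichment of each peak, the ratio of IP to input at the summit. The 4 knock-in lists gave positions only. Read depth is unknown for all 13 lists, and a missing peak means that none passed the caller's threshold. Since peak lists hold no expression, the labelled cell types could be looked at only through marker genes with peaks. Of 6 stem cell markers 4 (Pou5f1, Sox2, Zfp42 and Esrrb) had a peak in at least 1 library, and Nanog and Klf4 had none. By library, 1 or 2 of the 6 had a peak in WT ESC, 0 in each TKO ESC library, 0 or 1 in WT EB, 3 or 4 in Tet2-KI and 1 in Tet2dRBD-KI. Of 6 early differentiation markers, Gata6 had peaks in WT ESC replicate 3 and Tet2dRBD-KI replicate 2, and Sox17 in WT EB replicate 2 and Tet2dRBD-KI replicate 2. These counts do not check the labelled cell types.

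Tet enzymes oxidise 5-methylcytosine to 5hmC in DNA and act on RNA as well. Calm2 and Calm3 are separate genes for the same protein, calmodulin, the calcium sensor that switches on kinases and the phosphatase calcineurin. Dyrk1a encodes a dosage-sensitive protein kinase that lies in the human Down syndrome critical region. Its substrates include splicing factors and the NFAT transcription factors, which calcineurin dephosphorylates. Ube2v1 encodes a ubiquitin-conjugating enzyme variant that lacks the catalytic cysteine and pairs with UBE2N to build chains linked through lysine 63. Tmem189 encodes the desaturase that introduces the vinyl ether bond of plasmalogens, and readthrough transcripts join it to Ube2v1.

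Of the 25 regions, 3 had a peak in all 13 libraries, and all 3 lay deep inside an intron. Presence in every library was part of how the genes were chosen, so it is given as a description. Over all merged regions this held for 0.248%. The first was a 911 bp region of Calm2 intron 2 at chr17:87836825-87837735, which held 33 peaks. The next was a 622 bp region of Dyrk1a intron 2 at chr16:94851389-94852010 with 25 peaks. The last was a 317 bp region of Ube2v1 intron 2 at chr2:167440215-167440531 with 13 peaks, which also lies within an intron of the Tmem189 readthrough record. All coordinates are mm9, and numbers of exons and introns are those of the transcript with the suffix 001 in GENCODE M1. The 200 bp interval of the highest peak of each region is printed here because what the 3 regions share is visible in the letters. The sequences were read from the NCBIM37 (mm9) genome on the strand of the gene, 5′ to 3′, with every C in capitals. They cover chr17:87837185-87837384 (minus strand), chr16:94851794-94851993 (plus strand) and chr2:167440273-167440472 (minus strand).
Calm2 intron 2: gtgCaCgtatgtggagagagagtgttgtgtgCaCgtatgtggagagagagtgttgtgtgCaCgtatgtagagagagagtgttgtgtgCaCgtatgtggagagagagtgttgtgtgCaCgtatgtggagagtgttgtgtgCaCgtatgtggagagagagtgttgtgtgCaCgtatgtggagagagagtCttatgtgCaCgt
Dyrk1a intron 2: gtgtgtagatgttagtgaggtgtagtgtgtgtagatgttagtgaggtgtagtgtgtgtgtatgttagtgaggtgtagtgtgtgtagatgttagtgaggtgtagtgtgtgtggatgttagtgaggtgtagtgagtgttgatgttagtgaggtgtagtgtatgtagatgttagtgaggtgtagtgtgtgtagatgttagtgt
Ube2v1 intron 2: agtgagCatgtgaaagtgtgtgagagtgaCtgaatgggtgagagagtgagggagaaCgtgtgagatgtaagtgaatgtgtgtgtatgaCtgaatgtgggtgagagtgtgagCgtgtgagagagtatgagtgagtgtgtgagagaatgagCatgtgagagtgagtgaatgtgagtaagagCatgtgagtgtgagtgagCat

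All 3 intervals were rich in G and poor in C. C made up 8.5% of the Calm2 interval, 0% of the Dyrk1a interval and 4% of the Ube2v1 interval. G made up 41%, 42% and 42.5%. Over the 45490 peaks in protein-coding genes with a single strand, the median share of C was 16.5% and that of G 29.5%. The host introns as a whole were not so poor in C, which made up 15.5% of Calm2 intron 2, 19.5% of Dyrk1a intron 2 and 23.2% of Ube2v1 intron 2. The share of peaks in coding genes, members included, with no more C than the member interval was 6.68% for Calm2, 0.240% for Dyrk1a and 1.78% for Ube2v1. Over the 52 regions in coding genes with a peak in all 13 libraries, members included, the median share of C was 11.5% and that of G 32.75%. Intervals of other genes among them had such shares, with 3% C and 40.5% G in Med13l and 8% and 42% in Ndfip2. Pex5 had 3.5% C with 28.5% G. The Dyrk1a interval was the 1 interval of these 52 without any C.

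The C-free stretch of Dyrk1a was longer than the interval. On the strand of the gene, no C occurred over 576 nt, at chr16:94851454-94852029. All 25 summits of the region, from all 13 libraries, lay in this run. The distance from a summit to the nearest C was at least 35 nt, 126 nt in the median and at most 252 nt. For Calm2 the median distance was 6 nt and for Ube2v1 9 nt, and over all peaks in coding genes it was 2 nt. A summit as far from C as the Dyrk1a median was found for 0.165% of peaks in coding genes, the Dyrk1a peaks themselves included. The other strand of the same stretch is rich in C, since G was at most 2 nt from every Dyrk1a summit. The lists give no strand and no reads, so neither the strand of the RNA nor the reach of the fragments under these summits could be examined. The reference is 1 genome sequence, and the arrays of these cell lines were not sequenced here.

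**Figure D1:**
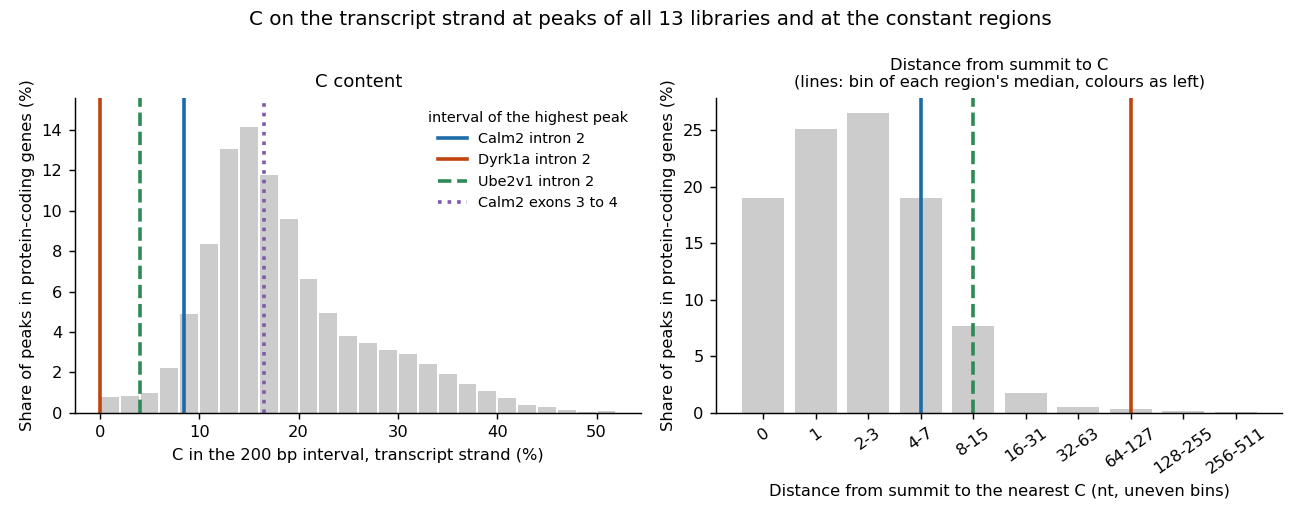
Left, share of C in the 200 bp interval of 45490 peaks in protein-coding genes (grey bars, bins of 2 percentage points) with the member intervals as lines; right, distance in nt from summit to the nearest C. The Dyrk1a line stands at 0% C and in the bin of its median distance of 126 nt, far from the bulk of the peaks, and the Calm2 exons 3 to 4 interval stands near the middle.

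The Calm2 and Dyrk1a regions were tandem arrays of a long unit. An interval was called a long-unit array when at least 80% of its bases equalled the base 1 period away, for a period between 10 and 100 nt, and a short-unit repeat for a period of 1 to 9 nt. Where both held, it was called a short-unit repeat. In Calm2 the period was 28 nt with a match of 88.4% over the printed interval, and 25 of the 33 peaks of the region met the definition. In Dyrk1a the period was 26 nt with a match of 94.3%, and 19 of 25 peaks met it. The Ube2v1 interval did not, with a best match of 57.6% at a period of 10 nt. The most frequent exact word of 1 period in each array is shown with C in capitals, to make the repeat visible.
Calm2 unit: agagtgttgtgtgCaCgtatgtggagag
Dyrk1a unit: agatgttagtgaggtgtagtgtgtgt

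The Calm2 word occurred 10 times in the 860 nt array at chr17:87836922-87837781, and the Dyrk1a word 14 times in the 620 nt array at chr16:94851427-94852046. Every peak summit of both regions lay inside its array. Long-unit arrays made up 2.89% of all intervals and 13.8% of the highest 1% of peaks in each of the 9 lists with values, against 3.17% of the other peaks of those lists. The member regions supplied 15 of the 44 arrays among these 320 highest peaks. Without the member regions the shares were 9.76% (29 of 297) and 3.13%. These shares count peaks, so a region can enter them from several lists. Counted with 1 interval per region, long-unit arrays made up 1.88% of all merged regions (437 of 23295). In regions with a peak in all 13 libraries they made up 8.77% (5 of 57 on reference chromosomes, Calm2 and Dyrk1a among them).

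The 3 regions did not share a unit. The longest run of letters common to all 3 intervals was 6 nt, and Dyrk1a and Ube2v1 shared at most 12 nt. The words TCTCT and CACAC were absent from all 3 intervals on the strand of the gene, and occur in 17.7% and 12.3% of intervals of peaks in coding genes. Their reverse complements AGAGA and GTGTG, counted with overlaps, occurred 13 and 6 times in the Calm2 interval and 3 and 10 times in the Ube2v1 interval. In the Dyrk1a interval AGAGA was absent and GTGTG occurred 13 times. AGAGA is found in 45.8% and GTGTG in 28.6% of intervals of peaks in coding genes. When each interval was divided into words of 50 nt, none of the 12 words of these 3 intervals had a copy more than 5000 bp away in the genome on either strand. Within 5000 bp, 1 Calm2 word occurred 4 times and 1 Dyrk1a word 9 times, while the other words of these intervals occurred once.

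Other arrays of the member genes had no peak. A scan of the 4 gene spans in windows of 200 nt found 6 long-unit arrays, of which 2 had peaks in all 13 libraries and 4 had none in any. The longest was a 1540 nt array of a 48 nt unit in Dyrk1a at chr16:94897407-94898946, with 35.5% C and 16.4% G on the strand of the gene. A 220 nt array at chr16:94836467-94836686 in the same gene held 31.8% C. The other two lay in the Tmem189 span, with 13.6% and 8.12% C. Both short-unit repeats found by the scan lay in Dyrk1a, where 1 of them overlaps the 220 nt array, and also lacked a peak. The number of arrays is too small for a comparison between those with and without peaks.

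Calm2 (ENSMUSG00000036438.6) lies at chr17:87832752-87846275 on the minus strand, and its intron 2 region had the highest mean of the members. Its value in a library is the highest fold enrichment of its peaks there. In WT ESC replicates 1, 2 and 3 it was 23.3, 35.4 and 61.3. In TKO ESC it was 16.4, 46.4 and 38.1, and in WT EB 14.8, 24.5 and 20.9. The TKO ESC values overlapped those of WT ESC, and 2 of the 3 WT EB values were below the lowest WT ESC value. The median fold enrichment of all peaks of a list lay between 5.43 and 7.28, so the Calm2 region was at least 2.60 times its library's median in all 9. Its peak held rank 1 of 6499 in WT ESC replicate 3, rank 3 of 3262 in TKO ESC replicate 3, rank 4 of 4323 in TKO ESC replicate 2 and rank 4 of 498 in WT EB replicate 1. The lowest rank was 93 of 3532, in WT EB replicate 3. Libraries had between 1 and 3 summits in this region, and the highest of them lay at 87837270, 87837274 and 87837284 in WT ESC replicates 1, 2 and 3. In the same order of replicates it lay at 87837635, 87837580 and 87837346 in TKO ESC. In WT EB it lay at 87837113, 87837284 and 87837584, so the strongest place was not the same in all libraries.

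Dyrk1a (ENSMUSG00000022897.7) lies at chr16:94791617-94917124 on the plus strand. Its intron 2 region had fold enrichments of 24.8, 58.6 and 25.9 in WT ESC, 13.9, 28.9 and 45.3 in TKO ESC and 12.0, 23.6 and 23.9 in WT EB. It was the highest peak of all 7113 in WT ESC replicate 2 and held rank 2 of 3262 in TKO ESC replicate 3. In the other 7 libraries with values its rank lay between 10 of 498 and 60 of 4323. All 3 WT EB values were below all 3 WT ESC values, and the TKO ESC values overlapped both. Libraries had 1 to 3 summits here. The highest summit lay at 94851523 in WT ESC replicate 3 and at 94851524 in WT EB replicate 1, while in the other 7 libraries it lay between 94851778 and 94851910.

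Ube2v1 (ENSMUSG00000078923.4) lies at chr2:167433138-167457595 on the minus strand, inside the readthrough record of Tmem189 (ENSMUSG00000089739.2, chr2:167433350-167486996) for nearly all of its length. Its intron 2 region had fold enrichments of 24.8, 27.1 and 32.1 in WT ESC, 12.4, 20.6 and 33.8 in TKO ESC and 10.2, 16.6 and 25.4 in WT EB. Every library had a single summit here, at positions from 167440314 to 167440431. In WT ESC replicate 1 it was the strongest of the member peaks, at rank 14 of 4395, ahead of Dyrk1a at rank 15 and Calm2 at rank 17. Its lowest rank as a share of the list was 5.39% of the peaks, in TKO ESC replicate 1.

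**Figure D2:**
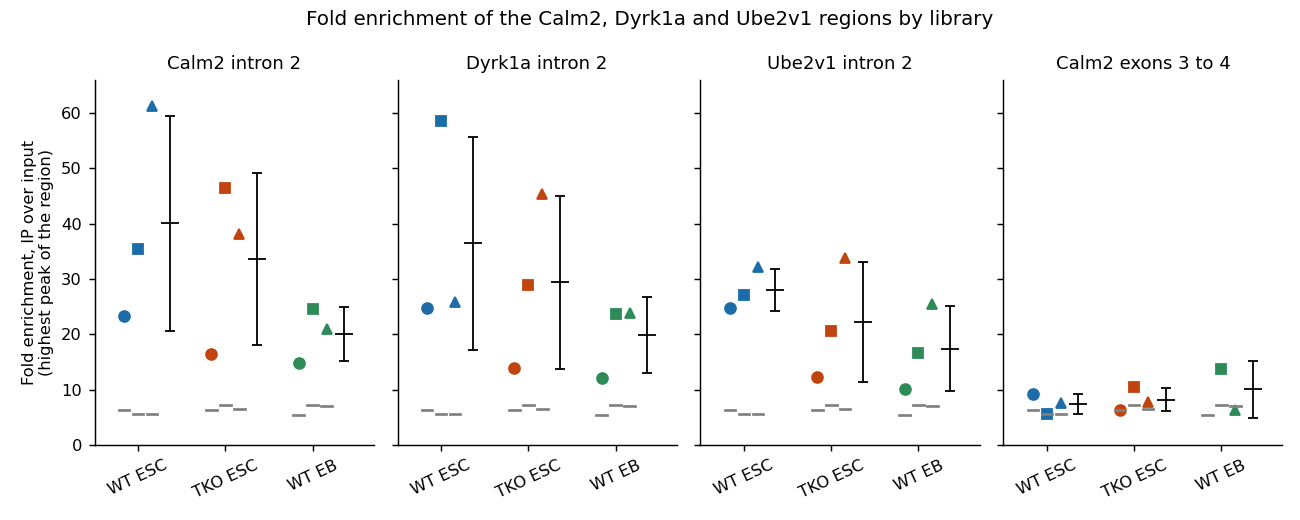
Fold enrichment (IP over input, highest peak of the region, linear axis from 0) of 4 member regions in the 9 libraries with values. Circles, squares and triangles are replicates 1, 2 and 3, black bars the mean ± SD (n = 3, but n = 2 for WT EB in Calm2 exons 3 to 4), and grey dashes each library's median over all its peaks; the 3 intron 2 regions sit above that median in every library.

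The mean over 9 libraries was 31.2 ± 15.4 (SD) for Calm2, 28.5 ± 14.7 for Dyrk1a and 22.6 ± 8.27 for Ube2v1. Among the 68 regions with a value in all 9 libraries these were the second, the third and the fourth highest means, after a region of Htatsf1 at 31.4 ± 18.0. The genes were chosen for strong peaks in these lists, so their place in this order describes the choice and is no finding. Neighbours in this order differed by less than their SD. By the lowest value over the libraries, Calm2 (14.8) came before Dyrk1a (12.0), and Ube2v1 (10.2) was number 6. The regions were constant in presence and not in level. The highest value was 4.14 times the lowest for Calm2, 4.87 times for Dyrk1a and 3.31 times for Ube2v1. Their coefficients of variation were 49.4%, 51.6% and 36.7%, beside a median of 39.5% over the 68 regions.

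The places of the summits were alike in most libraries. In Calm2 they gathered at the middle of the region and near both ends, and TKO ESC replicates 1 and 3 and WT EB replicate 1 had summits between these places. In Dyrk1a 11 libraries had summits on both sides of the centre. The exceptions were both Tet2dRBD-KI libraries, each with a single summit, at 94851889 and 94851897. Both summits lay on the same side as the 3′ summits of the other libraries, and with 2 libraries in the group and no values in their lists this was not tested.

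**Figure D3:**
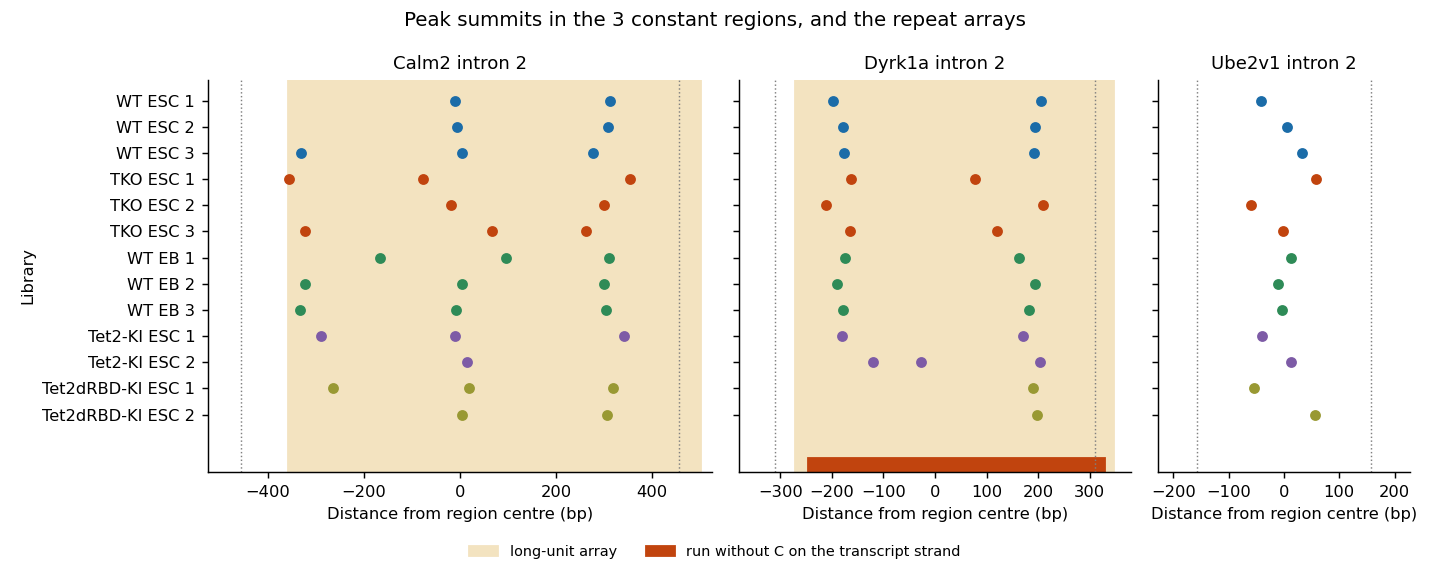
Position of each peak summit (points, coloured by group) relative to the centre of the region in bp, for the 13 libraries in the 3 constant regions. Shading marks the long-unit arrays of 860 nt (Calm2) and 620 nt (Dyrk1a), the red bar the 576 nt without C, and dotted lines the region's ends; every Dyrk1a summit lies above the red bar.

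The 3 regions were chosen for strong peaks in every library, TKO ESC and WT EB included, so a lost peak could not appear among them, and the choice favours small differences between groups. With that limit, the log2 fold enrichments of TKO ESC and WT ESC were compared by limma over the 283 regions with a peak in all 6 libraries. Values are log2 differences, TKO ESC minus WT ESC, with their standard errors. The difference was -0.27 ± 0.50 for Calm2, -0.35 ± 0.51 for Dyrk1a and -0.44 ± 0.46 for Ube2v1. None passed, with limma adjusted p-values of 0.945, 0.945 and 0.913 (Benjamini-Hochberg). The 95% intervals ran from -1.33 to 0.79, from -1.42 to 0.73 and from -1.41 to 0.52, so reductions to 0.399, 0.373 and 0.377 of the wild-type level and increases to 1.73, 1.65 and 1.43 times it lay inside them. Exact two-sided permutation tests over the 6 libraries gave p = 0.7, 0.6 and 0.5, where 0.1 is the smallest p that 3 against 3 allows. With the replicate number as a block the differences had standard errors of 0.36, 0.42 and 0.36 and limma adjusted p-values of 0.789, 0.785 and 0.679, and none passed. The share of all tested regions called was 0% (0 of 283, with 10 at an unadjusted p under 0.05), and their median difference was -0.05. All 3 TKO ESC values below all 3 WT ESC values occurred in 7.07% of these regions and in no member region.

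Replicate 1 had the lowest value of its group in all 3 regions and in all 3 groups, and the list of TKO ESC replicate 1, with 964 peaks, was the shortest of the stem cell lists. Without TKO ESC replicate 1 the Calm2 and Dyrk1a differences turned to 0.18 and 0.11. They also turned positive without WT ESC replicate 3 (Calm2, 0.10) and without WT ESC replicate 2 (Dyrk1a, 0.05). The Ube2v1 difference kept its sign in all 14 alternatives, between -0.80 and -0.08.

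Embryoid bodies had lower mean values than stem cells in all 3 regions, but no difference passed the test. In Calm2 the mean fold enrichment was 40.0 ± 19.4 (SD, n = 3) in WT ESC and 20.1 ± 4.91 in WT EB. In Dyrk1a it was 36.4 ± 19.2 and 19.9 ± 6.79, and in Ube2v1 28.0 ± 3.74 and 17.4 ± 7.64. The log2 differences, WT EB minus WT ESC, were -0.91 ± 0.45, -0.82 ± 0.47 and -0.77 ± 0.44 (SE). The limma adjusted p-values over the 94 regions with a peak in all 6 libraries were 0.355, 0.423 and 0.423, and the unadjusted p-values 0.0642, 0.105 and 0.0989. The 95% intervals ran from -1.89 to 0.06, from -1.84 to 0.20 and from -1.71 to 0.17. The exact two-sided permutation p was 0.2 for Calm2, 0.1 for Dyrk1a, which is the smallest p possible, and 0.2 for Ube2v1. The differences of the 94 regions had a median of -0.30, and 73.4% were negative. That median depended on which regions were compared, and was 0.20 over the 730 regions with a peak in at least 2 of 3 libraries of each group and 0.11 over 370 regions without WT EB replicate 1. Among the 94 regions, 19.1% had a difference as low as that of Calm2. The share called was 0% (0 of 94, with 13 at an unadjusted p under 0.05). All 3 WT EB values lay below all 3 WT ESC values in 18.1% of the 94 regions, and among the 3 member regions in Dyrk1a. Both comparisons use the same WT ESC libraries. Fold enrichment is relative to input and does not measure how much of an RNA was present. In bulk samples, a lower enrichment in every cell and fewer enriched cells cannot be told apart.

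**Figure D4:**
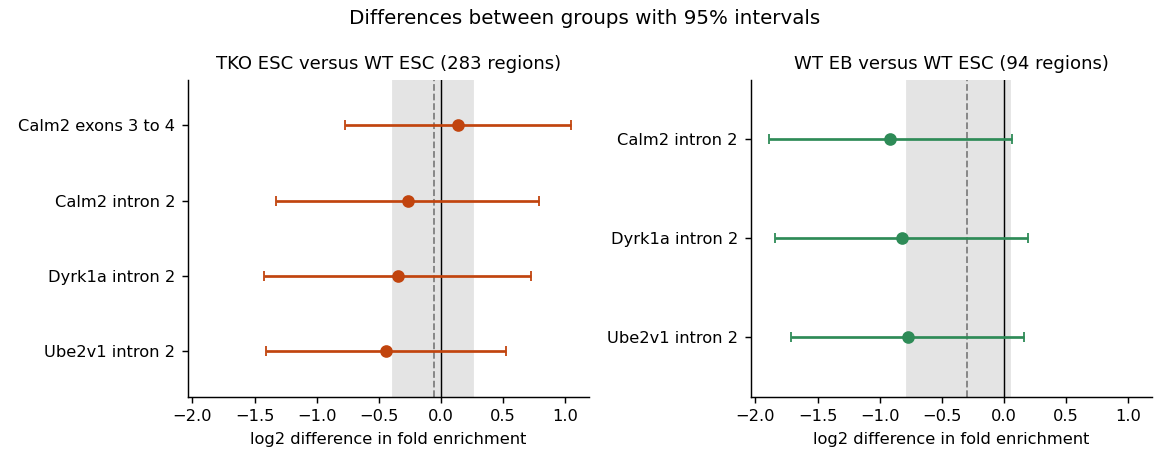
Log2 difference in fold enrichment from WT ESC (points) with 95% intervals (bars) for member regions with a peak in all 6 libraries, TKO ESC left and WT EB right. Grey bands are the middle 50% of all 283 and 94 regions tested and dashed lines their medians (-0.05 and -0.30), which turn to 0.19 and 0.20 over the 1179 and 730 regions with a peak in at least 2 of 3 libraries of each group. Every member interval crosses 0.

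WT EB replicate 1 carries another label prefix (1610) than replicates 2 and 3 (1703), as replicate 1 of WT ESC and TKO ESC does (1608). Within the libraries with the prefix 1703 the WT EB differences were -1.04 for Calm2, -0.71 for Dyrk1a and -0.52 for Ube2v1, and the TKO ESC differences were -0.15, -0.11 and -0.16. The medians over all regions of these fits were 0.19 (641 regions) for WT EB and 0.21 (930 regions) for TKO ESC. The limma adjusted p of the Calm2 difference between WT EB and WT ESC was 0.212 there. The part of the prefix in the low values of replicate 1 was not tested.

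**Figure D5:**
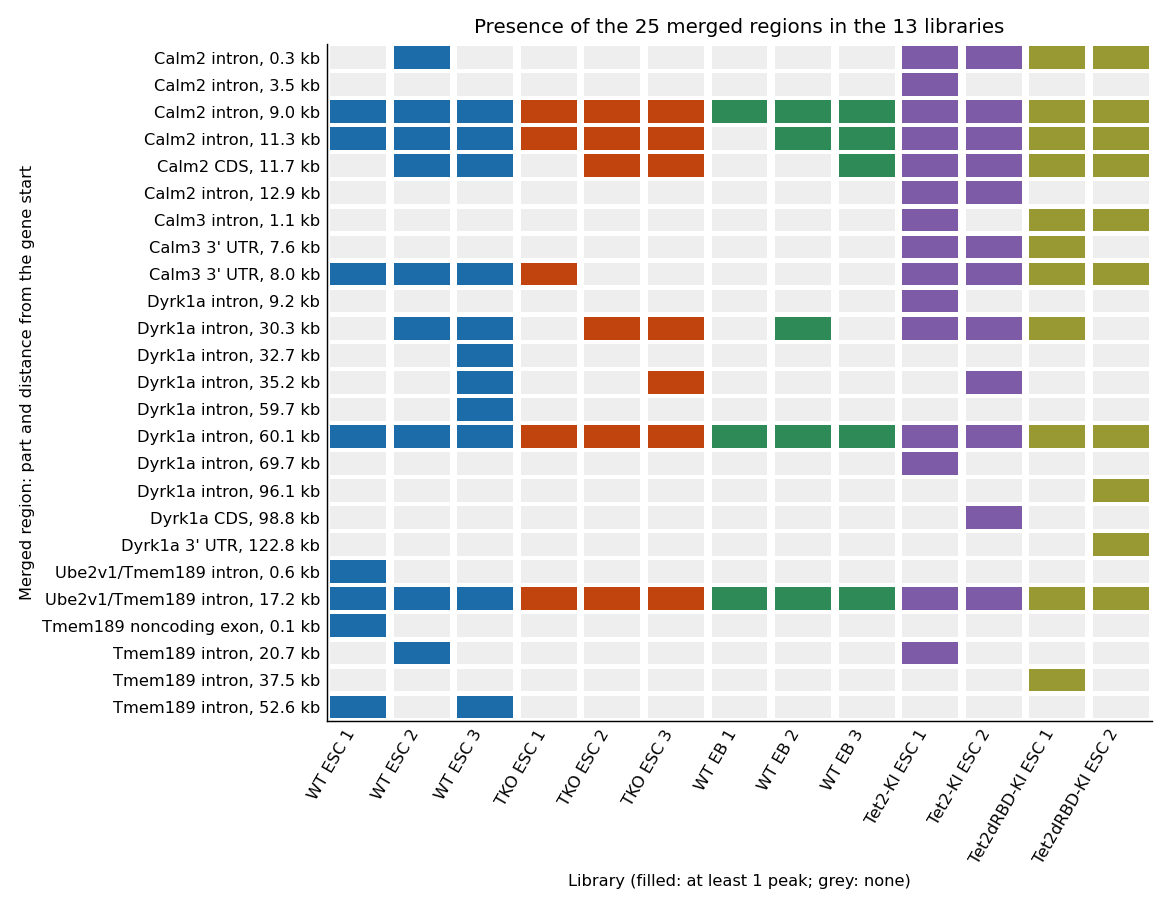
Presence of the 25 merged regions (rows, named by gene, part and distance in kb from the gene start) in the 13 libraries (columns). Filled cells hold at least 1 peak; 3 rows are filled across all 13 libraries, and 11 are filled in 1 library.

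The other 22 regions were weaker or in fewer libraries. Of the 25 regions, 15 had a peak in WT ESC, 8 in TKO ESC, 6 in WT EB, 17 in the Tet2-KI libraries and 13 in Tet2dRBD-KI. As shares of the 25 these are 60%, 32%, 24%, 68% and 52%, beside 49.7%, 25.1%, 17.6%, 53.3% and 27.0% of all 23367 merged regions. All 5 groups stood in the same order over all regions. The lists differ in length, from 498 to 10383 peaks, and the part of this in these counts was not tested. A single library held 11 regions, and 53.6% of all merged regions are of this kind. Dyrk1a had 7 such regions of its 10, spread from intron 1 to the 3′ UTR.

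Calm2 held peaks along most of its length, with 64 peaks in 6 regions. Its region at chr17:87834811-87835214 spans exons 3 and 4, which encode part of the calcium-binding EF hands, and was missing in WT EB replicate 1 of the 13 libraries. Fold enrichment was 9.19, 5.57 and 7.55 in WT ESC, 6.41, 10.4 and 7.74 in TKO ESC and 13.7 and 6.37 in WT EB replicates 2 and 3. These values were 0.900 to 1.90 times the median of their lists, and the groups overlapped. The highest rank as a share of the list was 9.61%, in WT EB replicate 2, and the lowest 60.5%, in WT EB replicate 3. TKO ESC minus WT ESC was 0.14 ± 0.43 (SE) on the log2 scale, with a limma adjusted p of 0.959 and an exact permutation p of 0.7. The interval of its highest peak, chr17:87835001-87835200 on the minus strand, is shown with exon bases in capitals to set a region without a repeat beside the arrays. Of the 13 summits of the region, 12, in as many libraries, fell in the short intron between the exons, and another of Tet2dRBD-KI replicate 1 fell in intron 4.
Calm2 exons 3 to 4: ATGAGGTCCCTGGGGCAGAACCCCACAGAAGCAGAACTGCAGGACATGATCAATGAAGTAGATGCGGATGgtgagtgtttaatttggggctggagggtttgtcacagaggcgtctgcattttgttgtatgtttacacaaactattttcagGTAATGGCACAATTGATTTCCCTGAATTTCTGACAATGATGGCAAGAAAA

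This interval held 16.5% C, the median of peaks in coding genes, and its best period match was 35.4%. A further Calm2 region at chr17:87834431-87834669, at the start of exon 5, had peaks in 9 libraries with a mean fold enrichment of 6.25 ± 1.1 (SD over 5 values). At chr17:87845736-87846201, in intron 1 at 0.307 kb from the gene start, all 4 knock-in libraries and WT ESC replicate 2 had a peak, with 26% to 30% C. The 4 knock-in libraries had summits from 87845835 to 87845898. That of WT ESC replicate 2 lay apart at 87846082, beside a second summit of Tet2-KI replicate 1 at 87846101. No TKO ESC or WT EB library had a peak in this merged region. Of regions with a peak in all 4 knock-in libraries, 26.6% were likewise found in at most 1 of the 9 other libraries. Both Tet2-KI libraries and no other had a peak at chr17:87833318-87833520, and Tet2-KI replicate 1 alone had a peak at chr17:87842682-87842881.

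Calm3 (ENSMUSG00000019370.10, chr7:17500728-17509463, minus strand), which encodes the same protein as Calm2, had no peak in WT EB. The scan found no long-unit array or short-unit repeat in its span, so no peak in an array could occur there. The main Calm3 region, in the 3′ UTR at chr7:17501312-17501709, had peaks in 8 libraries. The values were 6.15 to 11.9 in the 3 WT ESC libraries and 6.30 in TKO ESC replicate 1, and the 4 knock-in libraries also had peaks. Of regions with peaks in all 3 WT ESC libraries, 54.9% had no WT EB peak. A further 3′ UTR region at chr7:17501747-17501948 and an intron 1 region at chr7:17508121-17508532 had peaks in 3 knock-in libraries each and in no other library. Of the 1370 merged regions with a peak in 3 of the 4 knock-in libraries, 24.9% had none in the other 9. Calm3 peaks held 26.5% to 32% C in the main region, above that of every intron 2 region of the other genes.

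Dyrk1a had another recurrent region in intron 1, at chr16:94821705-94822120, with peaks in 8 libraries and fold enrichments of 4.85 to 9.85. None of its 8 peaks was an array (matches of 36.1% to 38.9%), and C made up 8% to 15.5% of their intervals. At chr16:94826682-94826957 there were peaks in WT ESC replicate 3, TKO ESC replicate 3 and Tet2-KI replicate 2. WT ESC replicate 3 also had a peak of 7.68 at chr16:94851175-94851374, just 5′ of the array.

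Besides the intron 2 region, Ube2v1 had 1 peak of 4.92 in its intron 1 in WT ESC replicate 1, which also lies within the Tmem189 readthrough record. Tmem189, which has a further record upstream (ENSMUSG00000090213.1, chr2:167468108-167515322), had 4 regions of its own, in 1 or 2 libraries each, with fold enrichments from 3.92 to 7.02. At chr2:167462650-167462875 the peaks of WT ESC replicates 1 and 3 held 35.5% to 37.5% C.

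The lists of partner genes are set beside all 22238 protein-coding gene names, of which 32.3% had a peak, 1.38% a region in at least 10 libraries and 0.211% a region in all 13. Gene length was not matched, and at these shares few or no such regions would be found in any list of this size. Of 20 genes of calmodulin and its effectors, 13 had a peak, but no region was in more than 5 libraries. Of 22 DYRK family members and DYRK1A partners 16 had a peak, with at most 7 libraries, in intron 2 of the kinase gene Hipk2 (mean 9.40 ± 3.73, SD over 4 values). Of 19 enzymes and partners of lysine 63 ubiquitin chains, 13 had a peak. Among them Rad18, a ubiquitin ligase of DNA damage tolerance, had a region in intron 6 at chr6:112628255-112628838 in 12 libraries, with a mean of 10.4 ± 4.62 (SD over 8 values) and no peak in TKO ESC replicate 1. Ube2n, the catalytic partner of Ube2v1, had a peak in both Tet2dRBD-KI libraries and no other. Of 10 ether lipid and plasmalogen enzymes 5 had a peak, in at most 4 libraries per region. No gene of these lists had a region in all 13 libraries.

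Over the 9 libraries with values, the regions outside the member genes whose centred log2 fold enrichment was most like that of Calm2 lay in Ncoa1 (Pearson r = 0.93), Ncl (0.92) and Agtpbp1 (0.91). For Dyrk1a they lay in Ncl (0.84), Peg10 (0.81) and Hmgn5 (0.80), and for Ube2v1 in Gnas (0.89), Nasp (0.87) and Eif3a (0.83). The median r over the 65 candidate regions was 0.57, 0.51 and 0.51, and its cause was not tested. Between members r was 0.69 for Calm2 and Dyrk1a, 0.77 for Calm2 and Ube2v1 and 0.82 for Dyrk1a and Ube2v1. Of the 65 candidates, 17 were at least as like Calm2 as Dyrk1a was, 7 at least as like Calm2 as Ube2v1 was, and 1 at least as like Dyrk1a as Ube2v1 was.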

How the data were processed

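RNA 5hmC was profiled by hMeRIP-seq in 13 IP libraries and 13 inputs, and the inputs were not analysed here on their own. Per the study's methods, the authors filtered low-complexity reads (AfterQC), removed rRNA and tRNA reads with Bowtie2, trimmed with Trimmomatic, aligned to mm9 with STAR and called peaks with MACS2 against the library's own input, with summits resized to 100 bp on each side. Versions are not given in the sources used here. The deposited lists hold positions and, for 9 libraries, the fold enrichment ratio made by the authors. The members and gene lists were chosen with earlier results of these data known.

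Peaks of all libraries that shared at least 1 bp were merged, and each library's highest fold enrichment per region was taken. Log2 values were tested with limma 3.58.1 in R 4.3.3, without scaling between libraries, on regions with a peak in all 6 libraries compared, and called at a Benjamini-Hochberg adjusted p of 0.05. Such regions had to pass the caller in both groups, so a region lost in 1 group was not tested. Single regions were also tested by exact permutation. Sequence came from NCBIM37 and gene models from GENCODE M1, and 163 intervals outside the reference sequence were left out of sequence counts. The 3 regions with a peak in all 13 libraries, Calm2 exons 3 to 4, and listed genes with a region in at least 10 libraries were named, along with the 3 most alike regions. Hipk2, Ube2n and the markers were named after their values were seen.

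On simulated data, limma called 6 of 11 regions changed by 2 on the log2 scale and 15 of 17 changed by 3 over the 283 regions of TKO ESC against WT ESC, and 3 of 255 unchanged regions. Over the 94 regions of WT EB against WT ESC it called 4 of 6, 3 of 3 and 1 of 85. The simulated noise was independent between libraries, and no change smaller than 2 was simulated. Calls at the smaller differences of the member regions were therefore not examined. Same-numbered TKO ESC and WT ESC libraries deviated together (correlations 0.33, 0.13 and 0.12 over 283 regions), so by the threshold of 0.1 the numbers were taken as pairs there, although replicate 3 correlated best with replicate 2. The unpaired fit stayed the main one, as in the design, and the blocked values are given beside it. A permutation within 3 pairs cannot give a p below 0.25. The study describes its wild-type stem cell libraries as biological triplicates.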

Additional observations from a re-analysis of the deposited data

How the results depend on the processing

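Counts of called regions in TKO ESC against WT ESC were 0 in every alternative run. For WT EB against WT ESC, 0 regions were called, 4 when each library was centred on its median, 7 with the label prefix as a covariate and between 0 and 1 when single libraries were left out (1 without WT ESC replicate 1). No member was among them. The number of member regions was 25, 31 when intervals were merged only at an overlap of 100 bp, and 11 when only peaks above the median of their own list in the 9 libraries with values were kept.

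With the replicate block, 7 regions were called lower in WT EB, none of them a member. The correlations of same-numbered libraries were 0.29, 0.15 and -0.02 there, so the numbers are not shown to pair these samples. The blocked WT EB difference had a limma adjusted p of 0.135 for Calm2, 0.155 for Dyrk1a and 0.156 for Ube2v1. In the paired TKO ESC comparison the block changed no call.

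The signs of the TKO ESC differences were not stable, apart from Ube2v1 intron 2, which stayed negative in all 14 alternatives. Calm2 exons 3 to 4 had -0.071 with centring, -0.053 without WT ESC replicate 2 and -0.049 without TKO ESC replicate 2. Calm2 intron 2 had 0.095 without WT ESC replicate 3 and 0.18 without TKO ESC replicate 1, and Dyrk1a intron 2 had 0.054 without WT ESC replicate 2 and 0.11 without TKO ESC replicate 1. The cause was not tested. Leaving out single libraries gave -0.053 to 0.31 for Calm2 exons 3 to 4, -0.60 to 0.18 for Calm2 intron 2 and -0.74 to 0.11 for Dyrk1a intron 2. Over 14 alternatives the WT EB differences stayed negative, from -1.25 to -0.55 for Calm2, -1.04 to -0.42 for Dyrk1a and -1.10 to -0.44 for Ube2v1, with limma adjusted p-values from 0.132 to 0.886. Read depth is unknown, so no interval for counting error could be given.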
